A study of Mus musculus with 6 samples.

Results

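miR-143 and miR-145 are microRNAs (miRNAs) cut from one primary transcript, and they are described here in osteoclasts sorted from mouse bone marrow after knee injury. They were picked by assay name and are 2 of the 103 miRNAs with a normalized value in the real-time PCR data. Both had a threshold cycle (Ct, the PCR cycle at which a product is detected, lower for more RNA) in all 6 samples, and 2 of 2 passed the limit for testing, which asks for Ct values under 35 throughout the 3 samples of one group or the other. The 3 ACLT samples came from mice whose anterior cruciate ligament had been cut 2 weeks before, an operation that destabilises the knee and is used to model osteoarthritis. The 3 Sham samples came from mice 2 weeks after a sham operation. In both groups the cells were enriched from marrow with magnetic beads as positive for OSCAR, the osteoclast-associated receptor, and CTR, the calcitonin receptor. No strain, age or genotype is given in the sources used here. The series text says that RNA of 3 mice per group was pooled in equal amounts, and it is not stated whether the samples are single mice or repeated measurements of such a pool. The p-values therefore measure only how far these samples differ, and that spread could be technical.

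miRNAs are short RNAs that guide Argonaute proteins to messenger RNAs and lower their stability and translation. miR-143 and miR-145 are best known from smooth muscle and other cells of mesenchymal origin, where serum response factor and myocardin drive their shared transcript and where they favour the contractile state, in part by repressing Klf4 and Klf5. In cartilage cells miR-145 is known to repress Sox9, a master regulator of that tissue, and in osteoclast precursors it has been described as repressing Smad3. In the RefSeq annotation both hairpins (Mir143 and Mir145a) lie inside the gene of the long noncoding RNA Carmn, also listed as Mir143hg, with 0 annotated genes between them.

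The 2 miRNAs do not share a seed, the stretch of bases 2 to 8 that pairs with targets, and 0 other assays of the array have the seed of miR-145 or of miR-143. The longest run of bases common to both is 3. The assay for the opposite arm of the miR-145 hairpin (miR-145*) gave no Ct in any sample, and no assay for the opposite arm of miR-143 was found among those listed. The sequences of 4 miRNAs that the results below set beside the pair are shown 5′ to 3′ as the authors' deposited table gives them, with the seed in capitals. miR-199a-3p, miR-214 and miR-152 are listed with the pair as miRNAs of stroma and vessel wall, and miR-134 had the profile closest to that of miR-143.
miR-199a-3p: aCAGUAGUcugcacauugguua
miR-214: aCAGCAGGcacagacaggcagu
miR-152: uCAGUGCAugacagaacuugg
miR-134: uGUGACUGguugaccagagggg

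The samples of each group were set against each other well by well. In 77 of 110 wells the Ct of ACLT sample 3 equalled that of ACLT sample 2 times or divided by 0.99, within 0.002 cycles. In 82 of 110 wells Sham sample 3 was tied to Sham sample 2 in the same way, with a factor of 0.97843. The other pairs of samples within a group shared a factor in 3 or 4 wells. miR-143 was on the factor in both groups and miR-145 in neither. For miR-143 the third value of each group is thus not an independent measurement, and the mean ± SD over 3 samples counts it as one. Among the 100 tested miRNAs, 70 were tied in this way in both groups and 16 in neither. All 13 miRNAs that passed as higher in ACLT, miR-145 included, were among these 16; the part of the tie in those calls was not tested.

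miR-145 was 6.09-fold higher in ACLT osteoclasts than in Sham osteoclasts (95% interval 2.69 to 13.8, from limma). Its level, taken as minus ΔCt (Ct relative to the U6 reference well of the same plate, on a log2 scale on which 1 unit is a doubling at full amplification efficiency), was 3.65, 2.80 and 4.00 in the ACLT samples, against 1.06, 0.22 and 1.35 in the Sham samples. The lowest ACLT sample lay above the highest Sham sample, so the groups did not overlap. Among all tested miRNAs the groups did not overlap for 26%, and for 18% ACLT was the higher one. The ACLT mean was 3.49 ± 0.62 and the Sham mean 0.88 ± 0.59 (SD, n = 3 each), and the difference of 2.61 ± 0.60 (SE) passed the test across all 100 miRNAs (limma, adjusted p = 0.000368, two-sided). In the same fit 20% of miRNAs passed in either direction and 13% passed as higher in ACLT. miR-145 was the sixth by size of increase, against a median change of 0.24 over all tested miRNAs. In RNA of sorted cells, fewer cells of a type and less RNA per cell cannot be told apart. limma pools the spread over all miRNAs as if wells were independent; the exact two-sided permutation test over the 6 samples gave p = 0.1 for miR-145, the smallest that 3 against 3 samples can give.

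The raw Ct of miR-145, before any normalization, was 22.3, 23.3 and 22.9 in ACLT, against 24.3, 26.7 and 25.1 in Sham. Every ACLT value was again lower (more RNA) than every Sham value. By mean Ct miR-145 ranked 6 of 103 miRNAs in ACLT and 15 of 103 in Sham, among the assays that reached threshold earliest. Within each group sample 2 was the lowest for this miRNA. Leaving out 1 sample at a time kept the change between 2.28 (without Sham sample 2) and 2.95 (without ACLT sample 2), and it passed in each case. With only samples 1 and 2 of each group the change was 2.58 and no longer passed (limma, adjusted p = 0.0801).

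miR-143, its partner, did not pass and was not detectably different. Its level was -3.40, -4.07 and -3.64 in the ACLT samples, against -4.58, -2.35 and -2.17 in the Sham samples. The Sham samples were split: Sham sample 1 was below all ACLT samples, and Sham samples 2 and 3, which are tied to each other, were above all of them. The ACLT mean was -3.70 ± 0.34 and the Sham mean -3.03 ± 1.34 (SD, n = 3 each). The difference of -0.67 ± 0.59 (SE) had a 95% interval from -1.84 to 0.49 (limma, adjusted p = 0.504; exact permutation p = 0.4). As a linear ratio of ACLT to Sham this is 0.627 with an interval from 0.280 to 1.41, which holds decreases as well as increases. The interval rests on the pooled spread and on the tied values of samples 2 and 3.

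**Figure D1:**
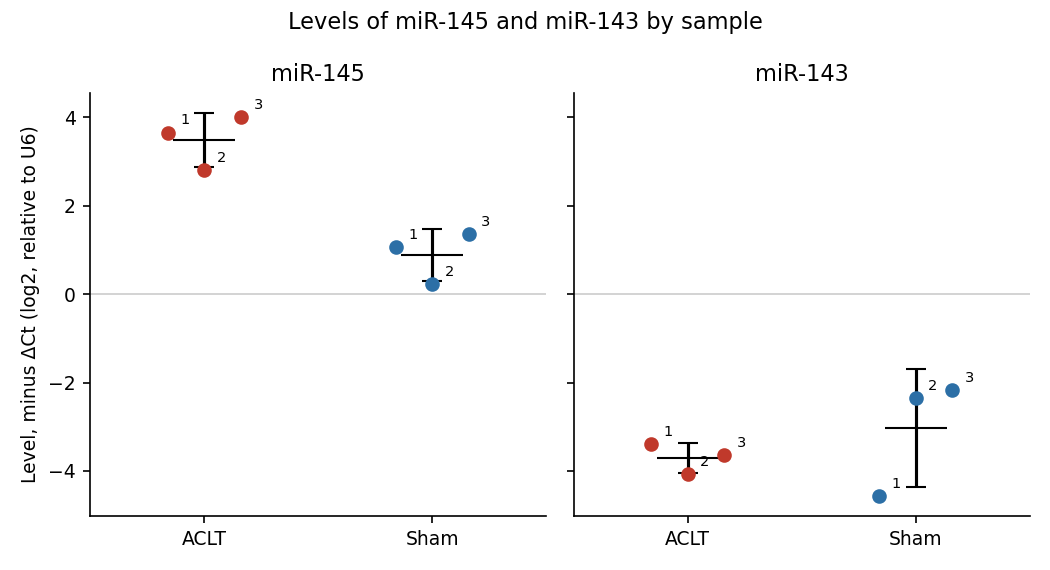
Level of miR-145 (left) and miR-143 (right) as minus ΔCt, log2 relative to U6, for each sample (points, labelled with the sample number) with mean ± SD in black, n = 3 per group. The ACLT samples of miR-145 lie between 2.80 and 4.00, all above the Sham samples, while those of miR-143 lie between Sham sample 1 at -4.58 and the other Sham samples.

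The spread of the normalized level of miR-143 in Sham was wide. Only 4 of the 100 tested miRNAs had a larger SD there, whereas in ACLT 74 had a larger SD. The raw Ct of miR-143 was 29.3, 30.2 and 30.5 in ACLT, against 29.9, 29.3 and 28.6 in Sham. Before normalization its spread was thus similar in the groups, with an SD of 0.61 cycles in ACLT and 0.65 cycles in Sham. The U6 well of the plate read 25.3 in Sham sample 1, against 26.9 and 26.5 in the other Sham samples, and 25.9, 26.1 and 26.9 in ACLT. Sham sample 1 thus had both the lowest U6 Ct of the 6 samples and the lowest normalized level of miR-143. Its raw Ct of 29.9 lay within the range of the ACLT samples, so it fell below all of them only once U6 was subtracted. Why the U6 Ct was low in that sample was not tested. Without Sham sample 1, miR-143 stood at -1.45 and passed as lower in ACLT (limma, adjusted p = 0.0214). That fit left only Sham samples 2 and 3, which are tied to each other for miR-143, and it counts them as independent. Without Sham sample 3 miR-143 stood at -0.24 and without Sham sample 2 at -0.33, and neither passed. With only samples 1 and 2 of each group, which leaves out sample 3 of each tied pair, miR-143 stood at -0.27 (limma, adjusted p = 0.851).

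The ratio of the partners can be read within each sample without a normalizer, because both assays lay on plate 1 and the U6 well cancels. The log2 ratio of miR-145 to miR-143 was 7.05, 6.87 and 7.65 in the ACLT samples, against 5.64, 2.57 and 3.52 in the Sham samples. All ACLT samples had a higher ratio than all Sham samples, with a gap of 1.23 between the groups. The mean log2 ratio of the ACLT samples was 7.19 ± 0.40 and that of the Sham samples 3.91 ± 1.57 (SD, n = 3 each), a difference of 3.28, or 9.71-fold. The exact two-sided permutation test gave p = 0.1, again the smallest possible with 3 against 3. Relative to U6, 2.61 of this difference came from miR-145 and 0.67 from miR-143; this split depends on the reference, since relative to reference 3 miR-145 stood at -0.13 and miR-143 at -3.41. The absolute ratio includes the unknown efficiencies of the 2 assays and is not a ratio of molecules; those efficiencies cancel between the groups only if they were the same in all samples.

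The Sham ratios ranged over 3.07 log2 units, and Sham sample 1 was nearest to the ACLT samples. Leaving out 1 sample at a time kept the difference between 2.61 (without Sham sample 2) and 4.15 (without Sham sample 1). After quantile normalization, which forces 1 distribution on all samples, it was 1.57 and the groups overlapped (exact permutation p = 0.2). A ratio that separates the groups is frequent here: among all 4950 pairs of tested miRNAs, 49.5% had ratios that did not overlap between ACLT and Sham. A change in ratio larger than 3.28 was seen in 6.71% of those pairs, and the median absolute change was 1.13. These pairs share samples, wells and ties and are given as a description.

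**Figure D2:**
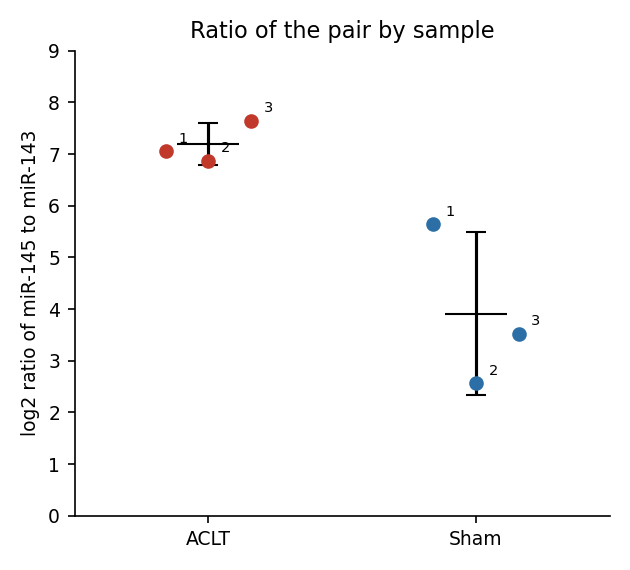
log2 ratio of miR-145 to miR-143 in each sample (points, labelled with the sample number) with mean ± SD in black, n = 3 per group. The ACLT samples lie between 6.87 and 7.65, and the Sham samples are spread from 2.57 to 5.64.

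The pair was set beside other miRNAs that are cut from shared transcripts. Of 25 listed clusters, 12 had at least 2 tested members, which gave 14 pairs, all with both assays on the same plate. Between the partners of the other 13 pairs the changes in ACLT against Sham differed by 0.03 to 1.75, with a median of 0.80. For miR-145 and miR-143 they differed by 3.28, the largest of the 14. The next were the erythroid miR-451 and miR-144, with changes of 1.21 and -0.54, then miR-30d and miR-30b with 2.93 and 1.25. The Dnm3os pair of miR-214 and miR-199a-3p changed by 3.44 and 2.43, so both partners passed there (limma, adjusted p = 3.78e-07 and 0.000945). The ratio did not overlap between the groups for 2 of the other 13 pairs, miR-451 with miR-144 and miR-93 with miR-25. Over all 4950 pairs of tested miRNAs this share was 49.5%. Among the 14 pairs, that of miR-145 and miR-143 was the only one with one partner off the factor in both groups and the other on it in both groups; the part of that tie in the difference was not tested.

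**Figure D3:**
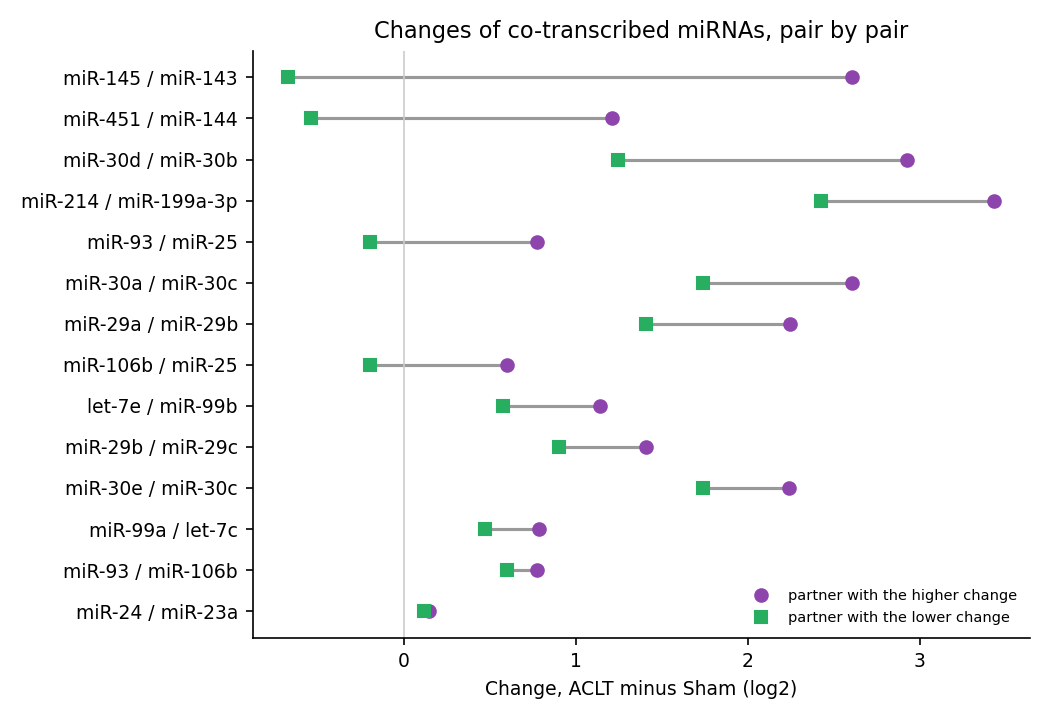
Change in ACLT minus Sham (log2) for both partners of each of 14 pairs of co-transcribed miRNAs, ordered from the largest difference at the top; the circle is the partner with the higher change. miR-145 and miR-143 at the top differ by 3.28, and the other pairs by at most 1.75.

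The partners also differed in which miRNAs their profiles were most like. Likeness was the root mean square difference of levels over the 6 samples, each miRNA centred on its own mean. For miR-145 the closest of the other 99 tested miRNAs were miR-199a-3p at 0.19, miR-200c at 0.33 and miR-29a at 0.41, against a median of 1.40 over all. miR-199a-3p is made from the Dnm3os transcript of mesenchymal cells and, with the same mature sequence, from other loci, miR-200c belongs to the epithelial miR-200 family, and miR-29a is known to repress collagen messages. All 3 were, like miR-145, off the factor in both groups, and their changes were 2.43, 2.49 and 2.25. The distance from miR-145 to miR-143 was 1.89, and 80 of the 99 were closer to miR-145 than its partner was.

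For miR-143 the closest were miR-134 at 0.033, miR-128 at 0.21 and miR-1981 at 0.22, against a median of 0.91. miR-134, from the imprinted Dlk1-Dio3 cluster, and miR-128 are known for their roles in neurons. The raw Ct of miR-134 was 29.3, 30.2 and 30.5 in ACLT and 29.8, 29.2 and 28.6 in Sham. It differed from the Ct of miR-143 by 0.0080 to 0.097 cycles in each of the 6 samples. The longest run of bases common to miR-143 and miR-134 is 4, equal to the median over all tested miRNAs, and their seeds differ. Of all 4950 pairs of tested miRNAs, 7 had closer profiles. A neighbour closer than 0.1 was found for 48 of the 100 miRNAs, and 46 of these 48 were on the factor in both groups, as miR-143 and miR-134 are. miR-145 and miR-199a-3p, off the factor, had raw Ct values 0.0020 cycles apart in ACLT sample 2 and 0.0070 cycles apart in Sham sample 2, and between 0.045 and 0.446 cycles apart in the other 4 samples.

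The reading of each miRNA against U6 depended on the scaling, and the ratio did not change with the choice of reference well. U6 itself differed by 0.08 cycles between ACLT and Sham on the plate that holds both assays (exact permutation p = 1). The same plate has a pair of further wells with Ct values that the files do not name. They have no line in the normalized data and were taken here as reference assays on that ground. One of them, reference 3, averaged 28.3 ± 0.79 cycles in the ACLT samples, against 31.0 ± 0.53 cycles in the Sham samples (SD, n = 3 each), with no overlap (exact permutation p = 0.1). Relative to reference 3, miR-145 stood at -0.13 (limma, adjusted p = 0.84) and miR-143 at -3.41 (adjusted p = 4.05e-05), and the median of all miRNAs stood at -2.50. Relative to the mean of the 3 references, miR-145 was higher by 1.48 (adjusted p = 0.0382) and miR-143 was lower by a change of -1.80 (adjusted p = 0.00966), with the median at -0.87. Relative to reference 2, a late and variable assay that averaged 31.7 ± 1.44 cycles in ACLT samples and 32.3 ± 1.13 cycles in Sham samples, miR-145 stood at 1.96 and miR-143 at -1.32, and neither passed (adjusted p = 0.986 for each). Centred on the median miRNA, miR-145 was higher by 2.16 (adjusted p = 0.000223) and miR-143 was lower by a change of -1.12 (adjusted p = 0.0147). After quantile normalization the changes were 1.28 (adjusted p = 0.0553) and -0.29 (adjusted p = 0.612). Measured from the median of all miRNAs in the same scaling, miR-145 lay 2.30 to 2.37 above it and miR-143 0.91 to 0.98 below it under all of these except quantile normalization, where the distances were 1.38 above and 0.19 below.

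**Figure D4:**
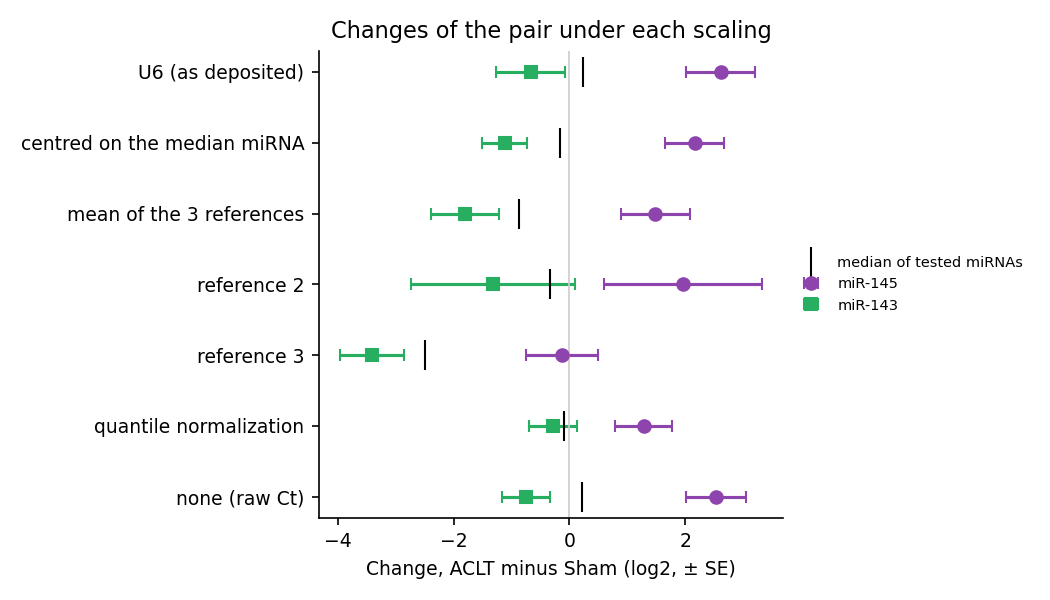
Change in ACLT minus Sham (log2, ± SE from limma) of miR-145 (circles) and miR-143 (squares) under 7 scalings, with the median change of all tested miRNAs as a vertical tick. The pair keeps its distance of 3.28 while both slide with the reference, for example to -0.13 and -3.41 with reference 3; quantile normalization narrows the distance to 1.57.

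Because the pair is carried by smooth muscle, pericytes and fibroblasts, other miRNAs of such cells were read beside it. Of 14 listed for smooth muscle and stroma, the pair included, 8 were tested and 6 gave no Ct, namely miR-199a-5p, miR-199b, miR-199b*, miR-140, miR-10b and miR-125b-5p. Over the whole array, 609 of 719 lines had no Ct in any sample, and 0 had a Ct in only some samples. 3 of the 8 tested rose and 0 fell, where 13% of all tested miRNAs rose and 7% fell. Beside miR-145 itself the risers were miR-199a-3p and miR-214, the co-transcribed Dnm3os pair described above. These were also the 3 members off the factor, as all miRNAs that rose were. miR-214 had levels of 3.96, 4.92 and 4.53 in ACLT, against 1.03, 1.08 and 0.99 in Sham. miR-199a-3p had levels of 3.21, 2.80 and 3.60 in ACLT, against 1.02, 0.23 and 1.08 in Sham, close to those of miR-145 in each sample.

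The other 4 tested members did not pass, although the levels of miR-99a did not overlap between the groups (-3.23, -3.36 and -2.33 in ACLT, against -4.18, -3.66 and -3.45 in Sham). miR-152, which shares a seed family with miR-148a, had levels of -3.92, -3.85 and -2.82 in ACLT, against -4.53, -1.97 and -1.80 in Sham, with Sham sample 1 apart as it was for miR-143. Its change was -0.76, and those of miR-218, miR-100 and miR-99a were 0.37, 0.45 and 0.79 (limma, adjusted p between 0.417 and 0.702). Without the pair, the 6 tested members had a median change of 0.62, against 0.24 over all tested miRNAs. Their summed linear level was 25.4 to 37.9 times U6 in ACLT, against 4.36 to 5.33 times U6 in Sham. miR-214 made up 61.0% to 79.8% of that sum in ACLT and 37.2% to 48.2% in Sham. Without miR-214 the sum was 7.67 to 13.5 in ACLT and 2.28 to 3.35 in Sham. Without miR-199a-3p as well, the 4 members left, all on the factor in both groups, summed to 0.676 to 1.39 in ACLT and 0.291 to 1.24 in Sham, which overlap. The separation of the summed level thus rested on miR-214 and miR-199a-3p; the part of stroma or vessel cells in the result was not tested.

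**Figure D5:**
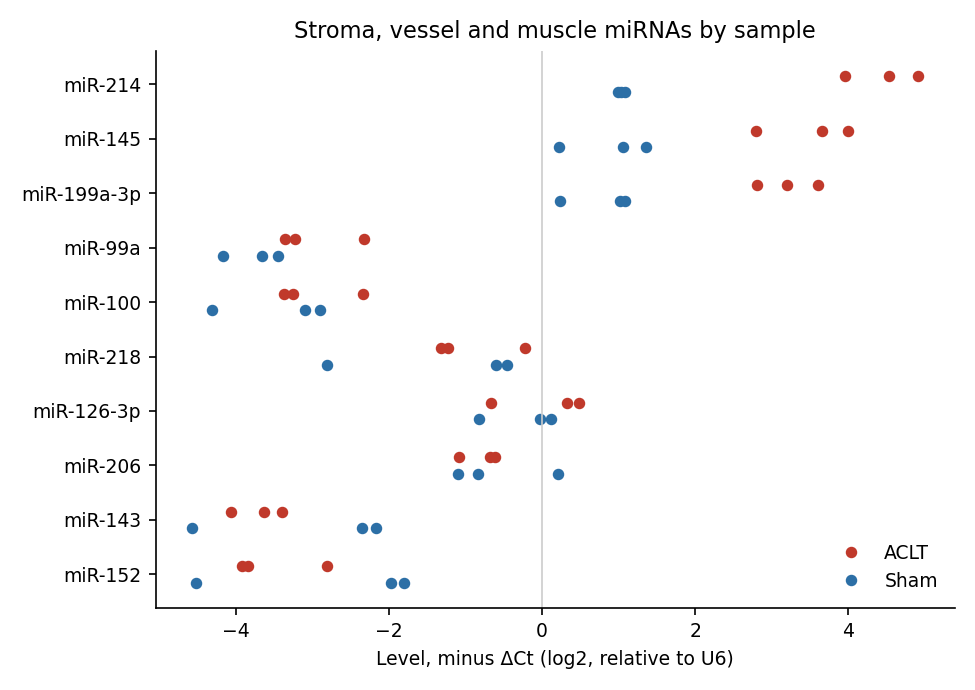
Level as minus ΔCt (log2 relative to U6) of each tested miRNA of smooth muscle and stroma, endothelium and skeletal muscle, with 3 ACLT samples (upper points of each row) and 3 Sham samples (lower points). Rows are ordered by the change: the 3 rows at the top, miR-145 between miR-214 and miR-199a-3p, are separated by group, as miR-99a narrowly is, and miR-143 and miR-152 overlap at the bottom.

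miRNAs of endothelium and muscle did not change detectably. miR-126-3p, the defining miRNA of endothelial cells, had levels of 0.49, -0.67 and 0.33 in ACLT, against -0.82, -0.02 and 0.11 in Sham (change 0.29, limma adjusted p = 0.77), and miR-126-5p gave no Ct. Of 4 skeletal muscle miRNAs only miR-206 was tested, with levels of -0.67, -1.08 and -0.62 in ACLT, against -1.09, 0.20 and -0.83 in Sham (change -0.22, limma adjusted p = 0.826). miR-1, miR-133a and miR-133b, which muscle carries with it, gave no Ct, as was so for 609 of the 719 lines of the array. Like miR-143, miR-126-3p and miR-206 were on the factor in ACLT and in Sham.

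The sort was also read against miRNAs of the myeloid lineage, to which osteoclasts belong. Of 8 listed, 4 were tested and 1 rose, miR-21, against 13% of all tested miRNAs. miR-142-5p stood at 0.28, miR-24 at 0.15 and miR-23a at 0.12. miR-223 and miR-142-3p, which define myeloid and blood cells, gave no Ct in any sample, and neither did miR-27a and miR-22. However, miR-142-5p, from the hairpin of miR-142-3p, had a Ct in all 6. Over the whole array 609 of 719 lines had no Ct. Of the epithelial miRNAs, 2 of 4 tested rose (miR-200b and miR-200c) and 2 fell (miR-203 and miR-205), where over all tested miRNAs 13% rose and 7% fell. Of the erythroid and the lymphoid miRNAs 0 of 3 each passed. miR-21, miR-200b and miR-200c were off the factor in both groups, and every other tested member of the myeloid, epithelial, erythroid and lymphoid lists was on it in both groups.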

How the data were processed

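miRNA levels were measured by real-time PCR in 3 ACLT and 3 Sham samples of sorted osteoclasts. Per the labels' protocols, Trizol was used for extraction, the QuantiMir kit for reverse transcription, and SYBR Green PCR ran for 40 cycles on a ViiA7. The deposited raw scores are Ct values of 719 lines, 110 with values in all 6 samples and 609 without any. The deposited normalized score is ΔCt, a log2 scale that equals the raw Ct minus the U6 well of the same sample and plate; U6 is named per the file headers. The authors' deposited ratio table gives 6.09 for miR-145 and 0.627 for miR-143, which the ΔCt means return. Not analysed here were 2 lines of that ΔCt table, and the sequences of the pair are not reported here. How the threshold and baseline were set is not stated in the labels or headers.

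The comparison of ACLT with Sham used limma 3.58.1 in R 4.3.3 (eBayes with a trend, Benjamini-Hochberg over 100 miRNAs, threshold 0.05; 400 degrees of freedom after pooling). The fit and the factor scan were run on simulated data. The values simulated for the fit were independent between samples and miRNAs, without the tie. That run therefore cannot check the limma p-values of these tied data. Ratios and reference wells were compared with exact permutation tests in scipy 1.17.1. The miRNAs, lists, clusters and alternatives were chosen with earlier results of these data known. Named were the pair, the detected stroma, vessel, muscle and myeloid miRNAs, co-transcribed pairs by their difference, the 3 closest profiles of each partner and the reference wells; names outside this rule were picked once their values were known. An array has no read depth, and the number of samples limits the precision.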

Additional observations from a re-analysis of the deposited data

How the results depend on the processing

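The change of miR-145 kept its direction and its call in 16 of 20 alternatives and ranged from 2.28 to 2.95 when leaving out each sample. It turned to -0.13 with reference 3, and lost the call with reference 2 (1.96), after quantile normalization (1.28) and with only samples 1 and 2 of each group (2.58). miR-143 became a call as lower relative to reference 3 (-3.41), to the average reference well (-1.80) and to the median miRNA (-1.12). It was also called lower without Sham sample 1, where only the tied Sham samples 2 and 3 were left. Its change ranged from -1.45 to -0.24 when leaving out each sample. The ratio stayed at 3.28 under each reference well by construction, was 1.57 after quantile normalization, and was 2.61 to 4.15 when leaving out each sample. It was 2.81 with samples 2 and 3 of each group averaged and 2.86 with only samples 1 and 2 (exact permutation p = 0.333 for each). The 20 miRNAs that passed became 40 relative to the average reference well, 36 relative to the median miRNA, 0 relative to reference 2 (limma; 2 at an unadjusted p under 0.05) and 88 relative to reference 3. They became 11 once samples 2 and 3 were averaged and 3 from samples 1 and 2 alone. Leaving out 1 sample gave 13 (ACLT sample 1, ACLT sample 2, Sham sample 2 or Sham sample 3) to 30 (Sham sample 1). The higher and lower calls were 13 and 7, against 13 and 23 when centred on the median, 10 and 14 after quantile normalization, 18 and 12 on raw Ct, 6 and 34 relative to the average reference well and 1 and 87 relative to reference 3. The cause of these shifts was not tested.

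Same-numbered samples did not deviate together throughout (correlations across miRNAs of 0.24, 0.06 and 0.07 for numbers 1, 2 and 3), so the numbers were not taken to pair the samples. With the replicate number as a block, miR-145 still passed (2.61, limma adjusted p = 2.38e-05), miR-143 did not (adjusted p = 0.589), 14 miRNAs passed, and the paired exact test of the ratio gave p = 0.25, its smallest possible.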
